A study of Arabidopsis thaliana with 6 samples.

Results

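The 41 genes described here act in meiosis of *Arabidopsis thaliana*. They were assembled by function, from the formation of double strand breaks to the end of the meiotic divisions, around *HEI10* (AT1G53490), which was itself chosen by its lower value in the contrast that is described. The question was whether that decrease stands alone or is shared by the genes of the same pathway. Of the 41 genes, 40 are among the 21799 genes with values. *DFO* (AT1G07060) was not analysed here. A level above 0.5 CPM (counts per 1 M reads) in at least 3 samples was required for the fit. It was reached by 38, while *SPO11-2* and *SWI1* exceeded 0.5 CPM in fewer samples.

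RNA was sequenced from whole inflorescences, harvested up to stage 12 of flower development, of wild-type Col-0 plants and of a quadruple mutant that combines *bee1*, *bee3*, *stk* and *ces-4*. Plants of both genotypes were grown at 22°C in long days without treatment, and each genotype has 3 biological replicates, each a pool of 5 plants. The mutant carries lesions in *STK*, which encodes a MADS-domain transcription factor, and in *CES*, *BEE1* and *BEE3*, which encode related basic helix-loop-helix transcription factors. The *ces-4* allele named in the titles is a T-DNA insertion, while the extraction notes write *ces-2* for the same plants. With a single mutant line, the parts of the 4 lesions in any difference cannot be told apart. Inflorescences hold buds of many stages, and meiocytes are a small part of their cells. In such bulk tissue, fewer cells of a type and less RNA per cell cannot be told apart.

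In meiosis, programmed double strand breaks are made along a protein axis and are repaired by strand exchange with the homologous chromosome. A minority of the repair events mature into crossovers. Most crossovers of Arabidopsis belong to class I, which needs the ZMM proteins and spaces crossovers along the chromosome, and the remainder belong to class II, which depends in part on MUS81. HEI10 is a RING-domain E3 ligase of the ZMM group: it loads along the synapsed chromosomes, gathers into few large foci at the sites of class I crossovers, and acts in a dosage-dependent manner, since extra copies raise the number of crossovers.

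All genes of the table together drew 15.9 to 21.2 M reads per sample, and a count of 3 reads corresponded to 0.137 to 0.185 CPM, a limit that covers counting error only. The fit across all 21287 tested genes called 148 genes at an adjusted p under 0.05 (limma-trend, Benjamini-Hochberg), 120 lower and 28 higher in the mutant. In the mutant, the mean level of the mutated genes was 19.9% of the wild type for *STK*, 4.86% for *CES*, 25.2% for *BEE1* and 3.54% for *BEE3*. Each was called lower. *BEE3* passed the filter on low values only through the wild-type samples, so its values are a description.

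*HEI10* lies on chromosome 1 at 19963267 to 19966952 on the forward strand (TAIR10.1). Its value was 14.0, 13.7 and 15.8 CPM in wild type replicates 1, 2 and 3 and 3.08, 3.23 and 3.17 CPM in the mutant replicates. All mutant samples lay far below all wild-type samples, and the 3 mutant values were close to each other. The wild-type mean was 14.5 ± 1.15 CPM (SD, n = 3) and the mutant mean 3.16 ± 0.0780 CPM (SD, n = 3), so that 21.8% of the wild-type level remained. The fitted log2 fold change, on the log2(CPM + 0.5) scale, was -2.03 with a 95% interval of -2.31 to -1.76. These values are a description with no test, because *HEI10* was chosen by them. They rest on 222 to 305 reads per wild-type sample and on 56 to 67 reads per mutant sample.

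None of the 37 tested genes other than *HEI10* was called. Over all tested genes, 0.695% were called in either direction and 0.564% were called lower. *HEI10* itself passed the same threshold, from which nothing is read, since it was chosen by this contrast. Their log2 fold changes ran from -0.39 for *ZYP1b* to 0.28 for *PRD2*, with 23 below 0 and 14 above. Their median was -0.04, beside 0.01 over all genes tested. Among the 37, *ZYP1b* alone had an unadjusted p under 0.05, a level that 9.31% of all tested genes reached.

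**Figure D1:**
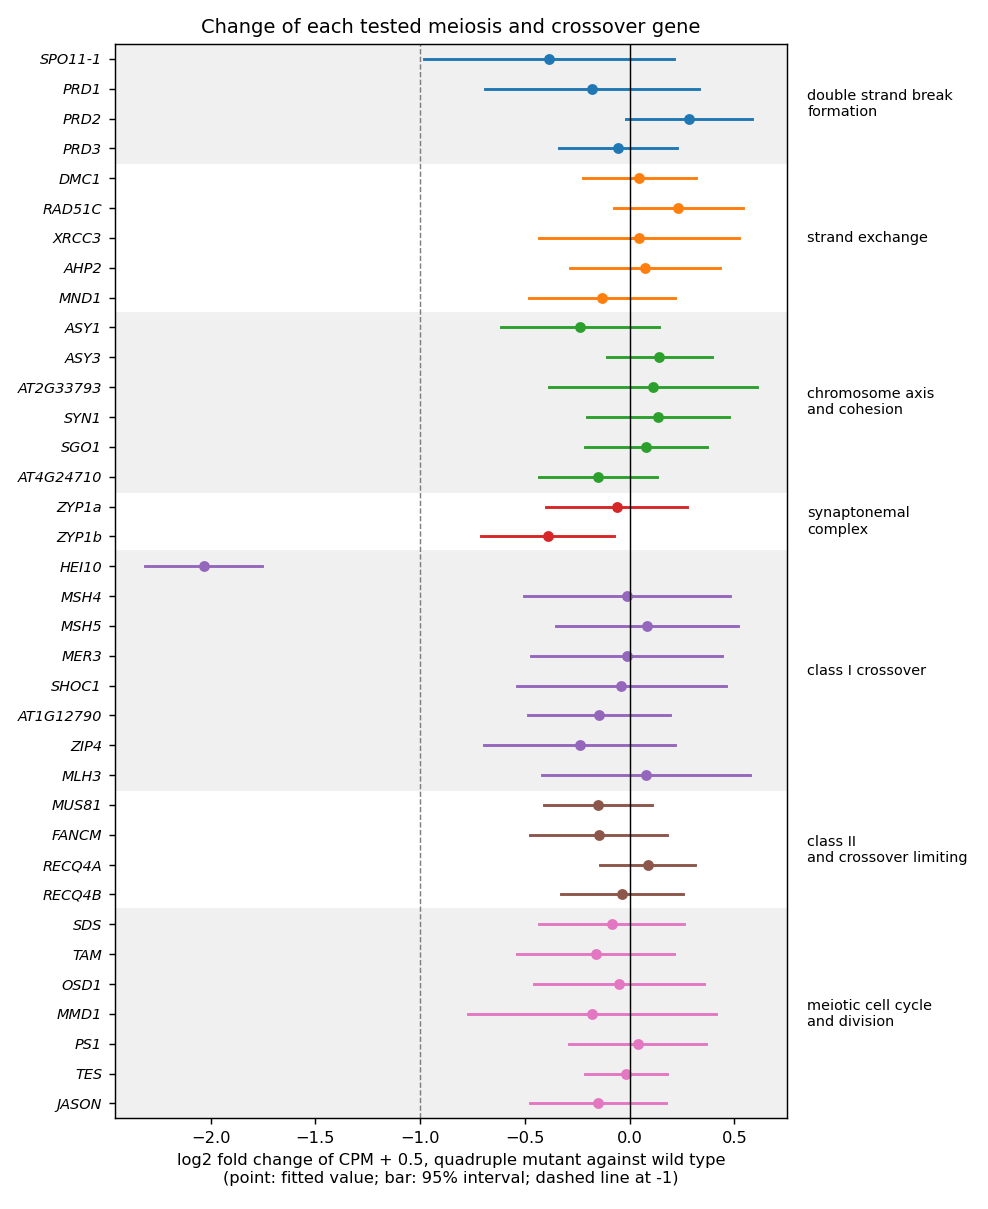
Fitted log2 fold change (quadruple mutant against wild type, log2 of CPM + 0.5) of 36 tested meiosis and crossover genes by role, with bars for the 95% interval. *HEI10*, at -2.03, stands apart from the others, whose values lie between -0.39 and 0.28.

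Since a p that misses the threshold does not show that a gene is unchanged, the intervals were set beside *HEI10*. All 37 intervals lay above the upper bound of *HEI10* (-1.76), and all 37 lay between log2 fold changes of -1 and 1. The lowest bound was -0.98, for *SPO11-1*, and the highest was 0.61, for AT2G33793. These bounds hold for log2(CPM + 0.5), where the added 0.5 CPM shrinks the changes of genes near 1 CPM. For such genes they are not bounds on the fold change of CPM. With 0.1 CPM added instead, the log2 fold change of *SPO11-1* moved from -0.38 to -0.53. For 29 of the 37, the interval also excluded a change of 1.5-fold in either direction. On this scale, a decrease of the size of *HEI10* was therefore outside the interval of every other tested gene. Smaller changes were not resolved at this depth for the genes with few reads. The median half-width of the 37 intervals was 0.34 on the log2 scale.

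The groups overlapped for 33 of the 37 genes. The 4 without overlap were *PRD2* and *RAD51C*, higher in all mutant samples, and *ASY1* and *ZYP1b*, lower in all of them. Over all tested genes 14.3% had groups that did not overlap in either direction.

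**Figure D2:**
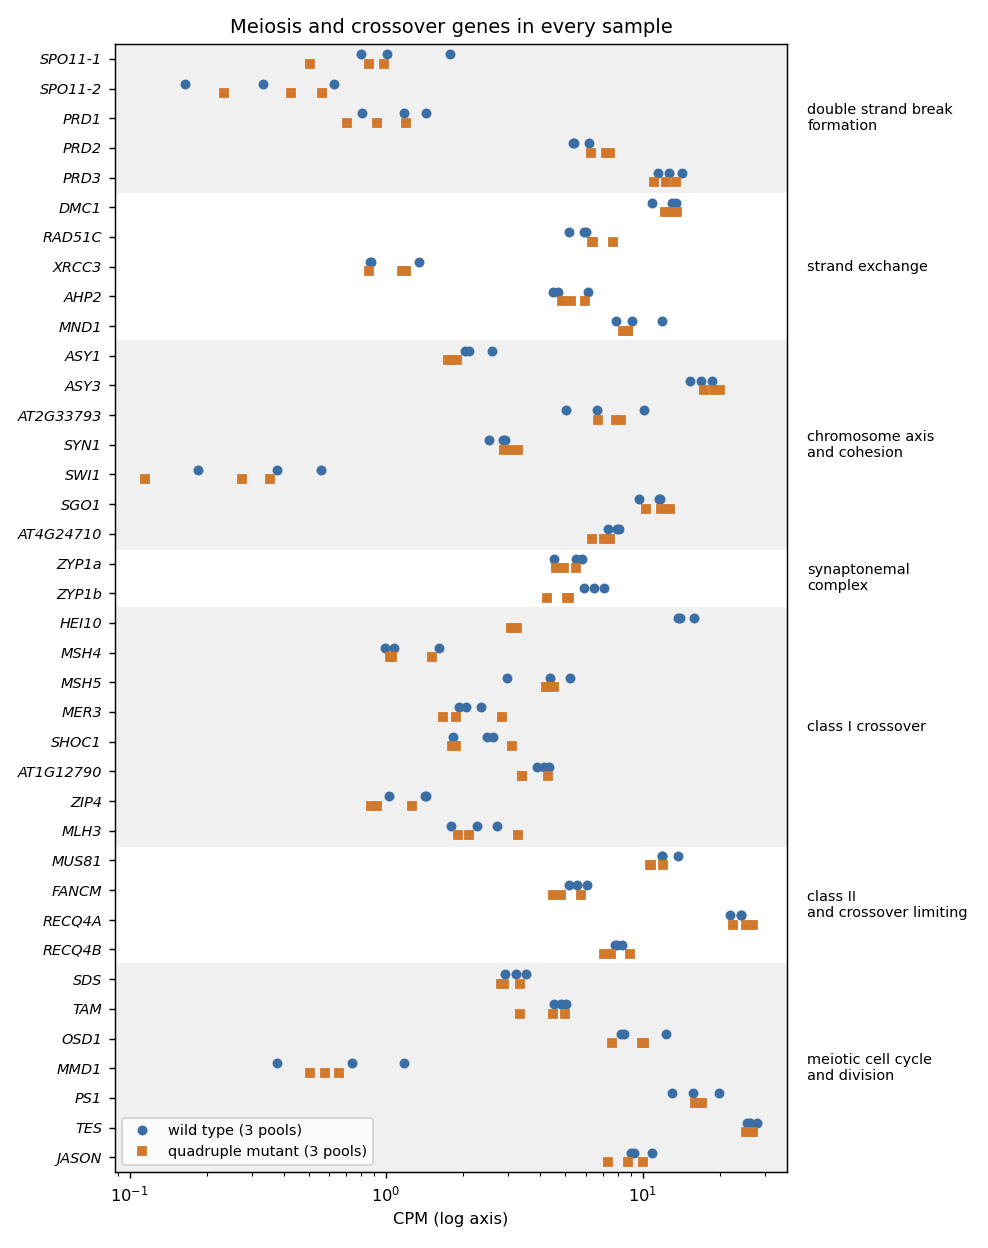
CPM (log axis) of 38 meiosis and crossover genes in the 3 wild-type pools (circles) and the 3 quadruple mutant pools (squares), by role. Only for *HEI10* is there a wide gap between the groups, 13.7 CPM in the lowest wild-type sample against 3.23 CPM in the highest mutant sample.

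Break formation is represented by SPO11-1 and SPO11-2, the topoisomerase-like proteins that make the breaks, and by PRD1, PRD2 and PRD3, which are needed for breaks to be made. *SPO11-1* gave 1.01, 0.802 and 1.78 CPM in the wild type and 0.504, 0.978 and 0.856 CPM in the mutant. The groups overlapped, with the highest value in wild type replicate 3, and its log2 fold change of -0.38 had an interval of -0.98 to 0.21, the widest of the 37 on the low side. It rests on 11 to 33 reads per sample. *PRD2* lay between 5.36 and 6.19 CPM in the wild type and between 6.28 and 7.48 CPM in the mutant, without overlap, and its log2 fold change was 0.28 (95% interval -0.02 to 0.59, adjusted p = 0.575). *PRD1* ranged from 0.705 to 1.43 CPM over all samples, with a log2 fold change of -0.18, and *PRD3* from 11.1 to 14.3 CPM, with -0.06. *SPO11-2*, which was not tested, ranged from 0.165 to 0.629 CPM in the wild type and from 0.234 to 0.563 CPM in the mutant, or 3 to 11 reads per sample. The point estimates of the break genes thus lay on both sides of 0. The summed CPM of the 5 listed genes lay between 20.4 and 22.4 in the wild type and between 20.4 and 21.9 in the mutant. Its largest parts were *PRD3* and *PRD2*, with means of 12.55 and 6.31 CPM over all samples, against 0.988 CPM for *SPO11-1*. The sum therefore says little about *SPO11-1*.

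In strand exchange, DMC1, the recombinase specific to meiosis, coats the single-stranded DNA, and AHP2 and MND1 form a complex that assists it. *DMC1* measured 13.0, 13.6 and 10.9 CPM in the wild type and 12.8, 13.6 and 12.2 CPM in the mutant. The groups overlapped, and the log2 fold change was 0.05 (95% interval -0.22 to 0.31). *RAD51C*, which encodes a further protein of recombinational repair, gave 6.03, 5.18 and 5.92 CPM in the wild type and 6.42, 6.33 and 7.65 CPM in the mutant. This was the largest point estimate in the group, 0.23 (95% interval -0.08 to 0.54, adjusted p = 0.679), and the mutant samples were all above the wild type. *XRCC3*, which also acts in recombinational repair, had a log2 fold change of 0.04, *AHP2* 0.07 and *MND1* -0.13. The 6 genes together summed to 36.5 to 43.5 CPM in the wild type and 39.2 to 40.03 CPM in the mutant.

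Of the genes of the axis and of cohesion, *ASY1* encodes a HORMA-domain protein of the axis and *ASY3* its coiled-coil partner. *ASY1* measured 2.02, 2.59 and 2.10 CPM in the wild type and 1.74, 1.90 and 1.81 CPM in the mutant. Every mutant sample was lower, by little, and the log2 fold change of -0.23 had an interval of -0.61 to 0.14 (adjusted p = 0.756). *ASY3*, at 15.3 to 18.7 CPM in the wild type and 17.4 to 19.99 CPM in the mutant, had a log2 fold change of 0.14, so the point estimates of both axis proteins were opposite in sign and neither gene was called. *SYN1*, which encodes the meiotic cohesin subunit of the REC8 type, had 0.13, and *SGO1*, which encodes a shugoshin that protects centromeric cohesion, 0.08. AT2G33793, which was listed with the axis genes, and AT4G24710, annotated as a pachytene checkpoint-like protein, had log2 fold changes of 0.11 and -0.15. *SWI1*, needed for sister chromatid cohesion and entry into meiosis, had the lowest mean of all listed members: 0.184, 0.555 and 0.377 CPM in the wild type and 0.275, 0.115 and 0.352 CPM in the mutant. The groups overlapped, and several of these values are near the level of 3 reads.

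ZYP1a and ZYP1b form the transverse filament of the synaptonemal complex, the structure on which HEI10 gathers. *ZYP1b* measured 5.93, 7.09 and 6.46 CPM in the wild type and 5.18, 4.26 and 5.09 CPM in the mutant. All mutant samples were below all wild-type samples, and 74.5% of the wild-type mean remained. The log2 fold change was -0.39 (95% interval -0.71 to -0.07) with an unadjusted p of 0.0211 and an adjusted p of 0.388 in limma-trend, so that *ZYP1b* was not called. *ZYP1a* had 4.51, 5.49 and 5.81 CPM in the wild type and 5.50, 4.95 and 4.58 CPM in the mutant. These values overlapped, with a log2 fold change of -0.06 (95% interval -0.40 to 0.27).

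Both *ZYP1* genes lie 7.44 kb apart on chromosome 1, and their coding sequences are 93.4% identical over 2438 aligned bases. The estimation divides reads that fit both copies, so the split between the copies is uncertain and the sum is the safer value. The sum was 10.4, 12.6 and 12.3 CPM in the wild type and 10.7, 9.20 and 9.67 CPM in the mutant. These groups overlapped, since mutant replicate 1 lay above wild type replicate 1.

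Class I crossover formation holds *HEI10* and 8 further genes. MSH4 and MSH5 form a heterodimer that stabilises recombination intermediates, MER3 is a helicase, SHOC1 an XPF-like protein, ZIP4 a scaffold with tetratricopeptide repeats, and MLH3 a subunit of the endonuclease that resolves the intermediates. None of the 8 was called. Their log2 fold changes ran from -0.24 for *ZIP4* to 0.08 for *MSH5*, with a median of -0.01. *ZIP4* had 1.43, 1.42 and 1.02 CPM in the wild type and 0.871, 0.920 and 1.26 CPM in the mutant, with overlap and an interval of -0.70 to 0.22. *MSH5* ranged from 2.96 to 5.20 CPM in the wild type and from 4.20 to 4.53 CPM in the mutant. *MSH4*, *MER3* and *SHOC1* had values of -0.01, -0.01 and -0.04.

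*MLH3* had a log2 fold change of 0.08, and AT1G12790, annotated as a DNA ligase-like protein, had -0.15. Without *HEI10*, the class I genes summed to 38.5 to 43.1 CPM in the wild type and 40.6 to 42.2 CPM in the mutant, so the mutant range lay inside the wild-type range.

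Of the genes of class II and of crossover limitation, *MUS81* encodes a structure-specific endonuclease, and *FANCM*, *RECQ4A* and *RECQ4B* encode helicases that hold the number of crossovers down. *MUS81* measured 11.9, 13.7 and 11.9 CPM in the wild type and 10.7, 10.8 and 12.0 CPM in the mutant, with overlap, and its log2 fold change of -0.15 (95% interval -0.41 to 0.10) was the largest of the group. *FANCM* had -0.15, *RECQ4A* 0.09 and *RECQ4B* -0.04. The 4 genes summed to 47.8 to 51.4 CPM in the wild type and 47.8 to 51.3 CPM in the mutant.

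The last group acts in the meiotic cell cycle and divisions. SDS is a cyclin-like protein specific to meiosis, TAM an A-type cyclin, and OSD1 an inhibitor of the anaphase-promoting complex that is needed for passage into the last division. *SDS*, *TAM* and *OSD1* had log2 fold changes of -0.09, -0.16 and -0.05. *MMD1*, which encodes a PHD-finger protein of male meiocytes, gave 0.736, 1.17 and 0.377 CPM in the wild type and 0.504, 0.575 and 0.655 CPM in the mutant. All mutant values fell inside the wild-type range, and the log2 fold change of -0.18 had an interval of -0.77 to 0.41.

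*TES*, which encodes a kinesin needed for cytokinesis after male meiosis, had the highest mean of all members, with 27.9, 26.2 and 25.5 CPM in the wild type and 27.0, 25.3 and 26.3 CPM in the mutant. Its log2 fold change was -0.02 with the narrowest interval, -0.21 to 0.18. *PS1* and *JASON*, which act in spindle orientation at the end of meiosis, had 0.04 and -0.15. No gene of the group was called, and the lowest adjusted p was 0.834.

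Levels were also compared between genes after division by the length of the longest annotated transcript. In the wild type, *DMC1* with 8.35 CPM per kb, *MND1* with 7.58 and *TES* with 7.55 were among the highest of the 40. *HEI10* was in place 7 with 6.45 CPM per kb. In the mutant it was in place 26 with 1.40 CPM per kb, beside *SYN1* with 1.45 and *SDS* with 1.25. *DMC1* was near the top in both genotypes, and *SWI1* was last in both. Neighbours in the order, such as *MND1* and *TES*, differed by less than the spread between samples. In the wild type *ZIP4*, *SHOC1*, *MSH4*, *MER3* and *MSH5* were far below *HEI10*, from 0.45 CPM per kb for *ZIP4* to 1.45 CPM per kb for *MSH5*. AT1G12790, also listed with class I, had 2.70 CPM per kb. Read as CPM per kb, *HEI10* in the mutant was at the level of *MSH5*, at 1.51. Of the long *HEI10* transcript used here, 40.9% lies opposite exons of *MRD1*, a gene on the other strand described below. The places of *HEI10* may therefore depend on how reads of that part were counted.

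The 37 other tested genes also varied between samples of a genotype. Their median deviation from each gene's mean over the 6 samples was highest in wild type replicate 2 (0.09 on the log2 scale, with 26 of 37 genes above their mean) and lowest in mutant replicate 2 (-0.06, 13 of 37). The extremes thus belonged to one sample of each genotype, and the other samples lay between -0.05 and 0.02. The summed CPM of all listed members without *HEI10* was 302.1 in wild type replicate 2, 265.9 and 276.8 in the other wild-type samples, and 274.2 to 283.5 in the mutant. The summed level of 9 tapetum markers was highest in the same wild type replicate 2, at 485 CPM against 262 and 374 in the other wild-type samples. In the mutant it was 291, 429 and 325 CPM in replicates 1, 2 and 3. The highest mutant sum was thus in mutant replicate 2, where the median deviation of the 37 genes was lowest. The part of this tissue composition in the members' values was not tested.

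A further 36 genes of meiosis, such as the cohesin genes *SMC1*, *SMC3* and *SCC3* and the break repair genes *RAD50* and *MRE11*, were all tested. None was called in either direction, and their median log2 fold change was -0.03, with 23 below 0 and 13 above. The lowest was AT2G30480, at -0.41, the only one with an unadjusted p under 0.05 (0.0124, adjusted p = 0.322). Many of these genes also act in somatic cells. Markers of the surrounding tissues were set beside them. No gene was called among 4 tested early anther genes (median -0.16), 9 tapetum markers (-0.02), 8 mature pollen markers (0.02), 4 ovule markers (-0.16) or 12 genes of mitosis and S phase (0.07). An unadjusted p under 0.05 was reached by 1 early anther gene and by 1 gene of mitosis and S phase. Over all tested genes, 9.31% reached that level and 0.695% were called. Little is therefore read from the absence of calls in lists this short. The summed level of the early anther genes was 99.8 to 134 CPM in the wild type and 94.9 to 103 CPM in the mutant, and that of the mature pollen markers 1981 to 2656 CPM and 2268 to 2589 CPM. The sums of all these lists overlapped between the genotypes. No marker with a value was at 0 in any sample.

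Lower values in the mutant were also measured for a gene at the same locus. *MRD1* (AT1G53480), annotated as mto 1 responding down 1, lies at 19963047 to 19964712 on chromosome 1, on the reverse strand, and overlaps the start of *HEI10* head to head. It gave 41.7, 36.5 and 44.7 CPM in the wild type and 0.176, 0.275 and 0.259 CPM in the mutant, the latter being 4 to 5 reads per sample. The mutant values are barely above the level of 3 reads. The fitted log2 fold change of *MRD1* was -5.81, which understates the change of a gene with so few reads. Since *MRD1* passed the filter on low values only through the wild-type samples, where it is high, its values are given as a description. In CPM, *MRD1* dropped by 40.7 and *HEI10* by 11.4, or 27.9% of the drop of *MRD1*. In the 3 wild-type samples the value of *HEI10* was 33.6%, 37.5% and 35.4% of that of *MRD1*.

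By the annotation, 922 of the 2252 bases of the long *HEI10* transcript (40.9%) lie opposite exons of *MRD1*. All 922 belong to the 1196 bases of the 5′ untranslated region, and none of the 915 coding bases is overlapped. The coding region starts at 19965146, which is 434 bases beyond the annotated start of *MRD1*, and the shorter *HEI10* transcript begins there. The library kit keeps strand, but whether the counting used strand is not given in the sources used here. Without strand, reads from *MRD1* and from the first exon of *HEI10* cannot be told apart, and since the table holds 1 value per gene, neither can a fall of the coding part of *HEI10* and a fall of its first exon.

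**Figure D3:**
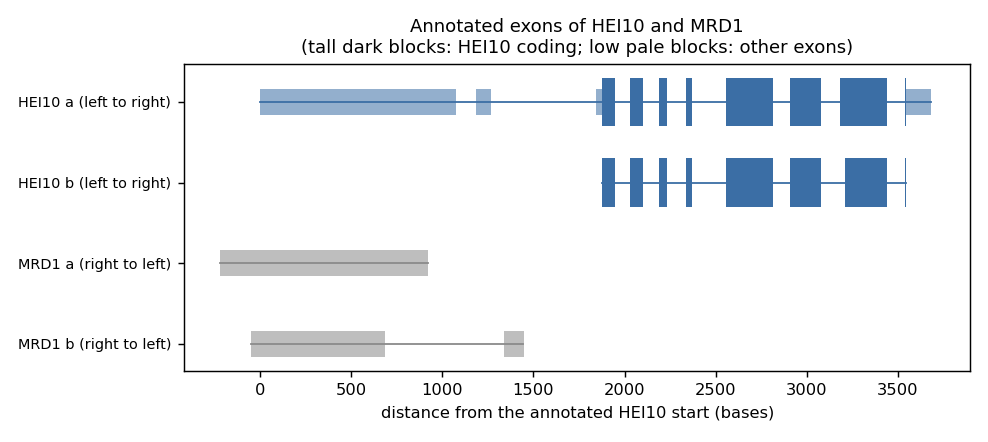
Annotated exons of *HEI10* (top, 2 transcripts, read left to right) and *MRD1* (bottom, 2 transcripts, read right to left), by distance in bases from the annotated start of *HEI10*. Exons of *MRD1* face the long first exon of *HEI10* and reach past its start. A further exon of the lower *MRD1* transcript lies opposite an intron of *HEI10*. The coding blocks of *HEI10* (tall, dark) begin beyond all of them.

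The 300 bases upstream of the annotated start of *MRD1* are shown because they lie directly upstream of *MRD1* and inside intron 2 of the long *HEI10* transcript, and so touch both genes with lower values. They are at chr1:19964713-19965012, printed on the forward strand from RefSeq's TAIR10.1. Capitals mark the only E-box of this stretch (CANNTG, both strands, the G-box CACGTG being one form of it), the core motif of many basic helix-loop-helix proteins. Beneath it stands the start of the *HEI10* coding region, chr1:19965146-19965215, with the start codon in capitals.
HEI10 intron upstream of MRD1: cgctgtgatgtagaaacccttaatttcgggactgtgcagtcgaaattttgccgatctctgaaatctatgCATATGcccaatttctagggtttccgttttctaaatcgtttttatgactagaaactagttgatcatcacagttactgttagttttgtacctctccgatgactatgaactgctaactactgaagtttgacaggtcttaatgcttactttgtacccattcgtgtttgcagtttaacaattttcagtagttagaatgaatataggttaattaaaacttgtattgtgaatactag
HEI10 start of the coding region: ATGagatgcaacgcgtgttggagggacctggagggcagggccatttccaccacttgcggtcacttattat
The intron stretch held no G-box and no CArG box, the motif that MADS-domain proteins bind. An E-box was present in 62.3% of the 300-base stretches upstream of 21100 tested genes with a position, a G-box in 8% and a CArG box in 3.13%. Among the 41 meiosis and crossover genes, 24 had an E-box (58.5%), 3 a G-box (7.32%) and none a CArG box. The stretch upstream of the annotated *HEI10* start held none of these motifs. These matches are a description of the letters in the window.

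**Figure D4:**
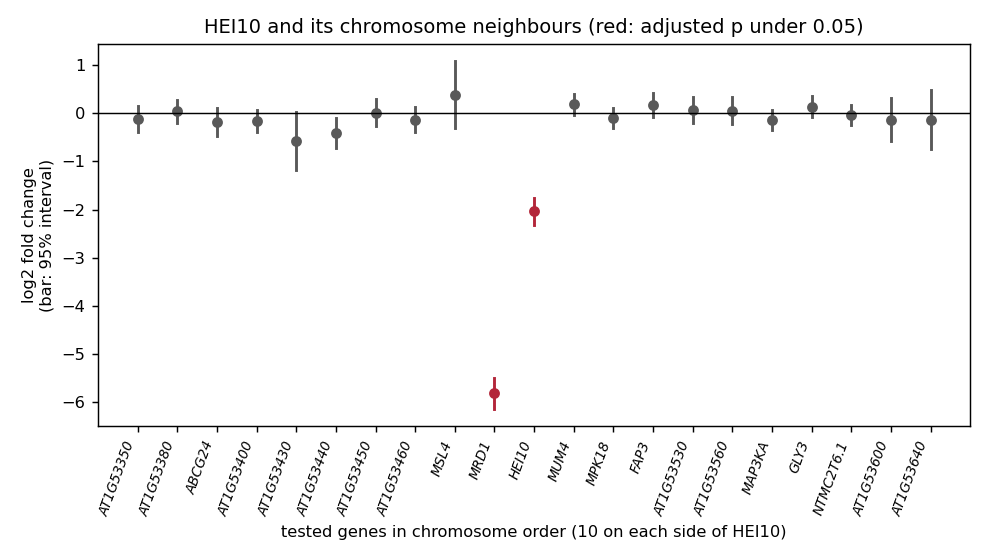
Log2 fold change (quadruple mutant against wild type, bars for the 95% interval) of *HEI10* and the 10 tested genes on each side in chromosome order. *MRD1*, at -5.81, and *HEI10*, at -2.03, are given as a description. The other 19 lie between -0.58 and 0.39, and none of them was called.

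Beyond this pair, no gene among the nearest neighbours was called, although some had point estimates below 0. The lowest were AT1G53430, with a log2 fold change of -0.58 (95% interval -1.18 to 0.02), and AT1G53440, with -0.41 (95% interval -0.72 to -0.10, unadjusted p = 0.0154, adjusted p = 0.348 in limma-trend). *MSL4* (AT1G53470), on the side of *MRD1*, had a log2 fold change of 0.39. *MUM4* (AT1G53500), whose end overlaps that of *HEI10* by 9 bases on the other strand, had 119, 106 and 103 CPM in the wild type and 111, 133 and 129 CPM in the mutant. These groups overlapped, with a log2 fold change of 0.18 (95% interval -0.03 to 0.40). The 19 tested neighbours other than *MRD1* lay between -0.58 and 0.39, and none was called. Over all tested genes 0.695% were called. In a window of 250 kb on each side, chosen after the values were seen, 104 other genes were tested and 3 were called. The share over all tested genes was 0.695%, and nothing is read from the count in a window chosen this way. Besides *MRD1* these were *GRI* (AT1G53130), 168 kb away, and *ESP* (AT1G54040), 207 kb away. *GRI* had 20.1 to 25.3 CPM in the wild type and at most 0.173 CPM in the mutant. Like *MRD1*, it passed the filter only through the wild-type samples, so its values are a description. *ESP* rose with a log2 fold change of 0.48.

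Among the mutated genes, *BEE3* lies 7.80 Mb, *CES* 11.1 Mb and *BEE1* 13.6 Mb from *HEI10* on the same chromosome. Chromosome 1 holds 17 of the 41 members. The other 14 of them that were tested had log2 fold changes between -0.39 and 0.09, and none was called. Over all tested genes 0.695% were called, so nothing is read from the absence of calls among 14.

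Other members also face a gene on the opposite strand. By the annotation, 14 of the 41 share exon bases with an antisense gene, and 9 of these have a partner with a value. The largest share after *HEI10* was that of *PRD1*, with 21.2% of its transcript opposite AT4G14190. That partner had a log2 fold change of 0.24 while *PRD1* had -0.18. Apart from *MRD1*, whose values are a description, no partner with a value was called. With 0.695% of all tested genes called, nothing is read from this for so few partners.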

How the data were processed

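The authors mapped the reads to TAIR10 with Bowtie2, estimated expression with RSEM and deposited CPM (counts per 1 M reads, scaled to effective library sizes with edgeR and not logged) for each of the 6 samples, together with their own fold changes, p-values and FDR, which were not used. Versions of these tools are not given in the sources used here. The table has 21801 rows, of which 2 hold no values. Low CPM values came in steps, and 93.8% to 95.1% of them were whole multiples of 1 read within 0.1 read. This gave the depth, but counts were not rebuilt and no count test was run.

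Genotypes were compared with limma 3.58.1 (R 4.3.3), with a mean-variance trend, on log2(CPM + 0.5), for the 21287 genes that exceeded 0.5 CPM in 3 or more samples. Genotype was the only term, and p-values were adjusted over all genes tested (Benjamini-Hochberg). The script was tested on simulated data. Errors of CPM are SDs and intervals are 95% intervals of the moderated fit. An exact permutation test of 3 against 3 samples cannot give a p under 0.1, so none was used. The members and lists were chosen with earlier results of these data known. Values in every sample are given for *HEI10*, for members with an unadjusted p under 0.05, for the largest change in each role group and for the highest and lowest mean; further genes given this way were chosen after their values were seen. The values of 2 members are not reported here one by one and not plotted, but counts, medians and sums include them. Names, positions and sequences came from RefSeq's TAIR10.1. Transcript lengths are those of the longest annotated transcript. Alternatives were 2 other pseudocounts, 2 other filters, 2 other scalings, a replicate block and leaving out each sample. Python 3.11 tools were pandas, numpy and Biopython.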

Additional observations from a re-analysis of the deposited data

How the results depend on the processing

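No member other than *HEI10* was called in any of the 13 alternatives. A pseudocount of 0.1 CPM moved the log2 fold change of *HEI10*, a description, to -2.16, and one of 1 CPM to -1.90. The median of the other tested members stayed within the spread between replicates. Over all genes, 148 were called. Leaving out 1 sample gave between 28 and 114 calls, the lowest without wild type replicate 1 (28), followed by wild type replicate 3 (46), mutant replicate 1 (73) and mutant replicate 2 (75). The unadjusted p of *ZYP1b* in limma-trend rose to 0.0619 without wild type replicate 2 and to 0.0777 without mutant replicate 2. Leaving out 1 sample moved *MMD1* between -0.42 and 0.048 (positive without wild type replicate 2) and *TES* between -0.046 and 0.019 (positive, at 0.0078 and 0.019, without mutant replicate 2 and wild type replicate 1), with no call. *MRD1* falls below the filter when a wild-type sample is left out, and that alternative gave no value for it. With a replicate block, 64 genes were called; the numbers did not pair the samples (correlations of deviations -0.11, -0.16 and -0.10 for numbers 1, 2 and 3), and no sample correlated best with its own number. Depth limits the genes near 1 CPM most.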
